A study of Homo sapiens with 18 samples.

Results

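The mitochondrial genome of human cells carries 37 genes, and all of their transcripts were followed here in liver cells under hypoxia. The members were the rows of the gene count table whose symbol begins with MT-, 37 of the 61806 genes in the table. They comprised 13 mRNAs, the 2 rRNAs of the mitochondrial ribosome and 22 tRNAs, and all 37 were also in the FPKM table. The cells were HepG2, a human liver cancer line with many hepatocyte features, and APOA4-KO, a HepG2 derivative in which APOA4, the gene of an apolipoprotein of lipid particles, had been targeted with CRISPR-Cas9 and which was grown from a single colony. Both lines were sequenced at 0 h, before hypoxia, and after 24 h and 48 h at 1% oxygen, which gave 6 groups of 3 libraries. The labels do not say whether the 3 libraries of a group came from separate cultures, so the spread between them may be technical. No cells were kept outside hypoxia for 24 h or 48 h, so oxygen and time in culture cannot be told apart, and with 1 edited line the edit and the history of that clone cannot be told apart either. The transcripts were chosen by their symbols, but after earlier results of these libraries had shown that they differed between the groups. The calls below were therefore made on values that had already been used to pick the set, and they are given as a description.

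Each mitochondrion holds many copies of a small circular DNA, read from both strands into long precursor RNAs. The precursors are cut mainly at the tRNAs that punctuate them, and most of the mRNAs then receive a short poly(A) tail, which in several of them completes the stop codon. The mRNAs encode core subunits of the respiratory chain: MT-ND1 to MT-ND6 and MT-ND4L belong to complex I, the NADH dehydrogenase, MT-CYB is the cytochrome b of complex III, MT-CO1 to MT-CO3 form the core of complex IV, the cytochrome c oxidase that consumes oxygen, and MT-ATP6 and MT-ATP8 belong to complex V, the ATP synthase. All proteins that transcribe, cut, stabilise and degrade these RNAs are encoded in the nucleus.

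In GENCODE release 29 on GRCh38, 28 of the 37 genes lie on the + strand of chrM and 9 on the - strand, namely MT-ND6 and the tRNA genes MT-TQ, MT-TA, MT-TN, MT-TC, MT-TY, MT-TS1, MT-TE and MT-TP. The ends of 6 mRNAs are shown from the annotated transcripts because several results concern genes that meet or overlap at these ends. Capitals mark the annotated stop codon, AGA and AGG included, or the part of it that the DNA encodes. MT-CO1 (+ strand, chrM:7416-7445) ends directly before the - strand gene MT-TS1, MT-ND5 (+ strand, chrM:14119-14148) ends against the end of the - strand gene MT-ND6 (chrM:14149-14178), MT-ND4L (chrM:10737-10766) runs into MT-ND4, and MT-CO3 (chrM:9961-9990) and MT-CYB (chrM:15858-15887) encode a lone T of their stop codon and had the largest falls.
MT-CO1: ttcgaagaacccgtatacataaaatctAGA
MT-ND5: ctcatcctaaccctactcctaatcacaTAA
MT-ND6: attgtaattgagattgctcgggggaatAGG
MT-ND4L: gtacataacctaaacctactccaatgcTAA
MT-CO3: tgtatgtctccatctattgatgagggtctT
MT-CYB: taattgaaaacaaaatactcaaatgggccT

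The 18 libraries held 76481820 to 91604947 counts. The 12 hepatocyte markers examined, among them ALB and SERPINA1, were present in every group, and 11 markers of blood, vessel and connective tissue cells were looked up as well. Of these, CD3E, COL1A2, DCN and CDH5 had at most 28, 104, 120 and 209 counts, and COL1A1, PTPRC, VWF and PECAM1 at most 449, 675, 689 and 734. The others were higher in all libraries, with 2373 to 5277 counts for CD68, 2236 to 4215 for PDGFRB and 85686 to 210121 for LYZ. APOA4 itself had 702 to 799 counts in HepG2 and 607 to 702 in APOA4-KO at 0 h, and 1673 to 1968 against 551 to 648 at 48 h. Its transcript was thus still counted in the edited line. Counts over the whole gene do not show which exons the reads came from, so what they say of the edit was not tested. Every member passed the filter on low counts, with at least 15 counts in each library. Values are given as CPM, counts scaled to library size with TMM, and changes as log2 fold changes of the edgeR model with their SE. Rose, fell, higher and lower are written of members with an adjusted p under 0.05 over all 19743 genes tested.

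Mitochondrial transcripts took a large and changing part of the libraries. In HepG2 they made up 8.22%, 8.48% and 8.32% of all counts before hypoxia, 8.85%, 8.96% and 8.84% after 24 h and 6.67%, 6.50% and 6.56% after 48 h. In APOA4-KO the share was 9.01%, 9.23% and 9.31% before hypoxia, 5.37%, 5.35% and 5.42% after 24 h and 5.18%, 5.19% and 5.18% after 48 h. The share was thus highest in APOA4-KO before hypoxia and lowest in the same line after it, and no library of one group overlapped with those of another group. The mRNAs alone went from 6.81% ± 0.128 (SD, n = 3) to 3.64% ± 0.0150 in APOA4-KO and from 6.21% ± 0.0875 to 4.85% ± 0.0944 in HepG2. The tRNAs contributed 0.0248% to 0.0267% in APOA4-KO at 48 h and 0.0663% to 0.0695% in HepG2 at 24 h, their lowest and highest groups. Fewer mitochondria or genome copies in a cell and less RNA from each copy cannot be told apart in such bulk samples.

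**Figure D1:**
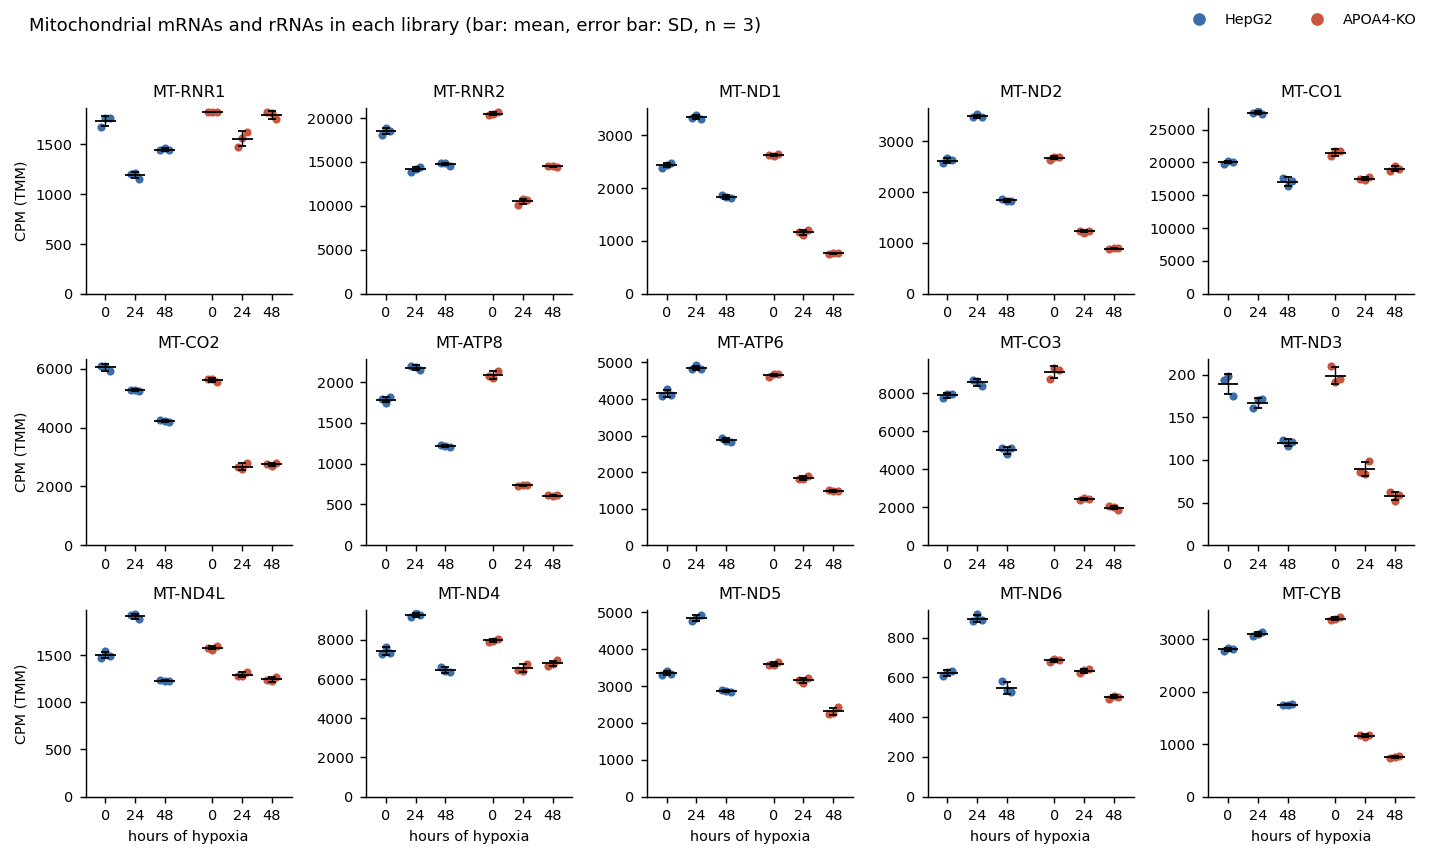
CPM (TMM scaled, linear axis from 0) of the 13 mitochondrial mRNAs and the 2 rRNAs, against hours of hypoxia, in HepG2 (blue) and APOA4-KO (red). Each point is 1 library, the bar is the mean and the error bar the SD of 3 libraries. Most mRNAs peaked at 24 h in HepG2, and in APOA4-KO MT-CO3 went from 8741 or more at 0 h to 2056 or less at 48 h while MT-CO1 stayed between 17263 and 21788.

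At 0 h, before hypoxia, the lines differed little in these transcripts. APOA4-KO was higher for 12 and lower for 3 of the 37 members, where 12.9% of all genes tested were higher and 17.6% lower. The median difference of the 13 mRNAs was 0.10, against -0.0068 over all genes tested. MT-CYB had the largest difference among the mRNAs, at 0.27 (SE 0.02), followed by MT-ATP8 at 0.23 (SE 0.02) and MT-CO3 at 0.21 (SE 0.03). MT-CO2 was the only mRNA that was lower, at -0.11 (SE 0.02). Among the tRNAs, MT-TR was higher, at 0.36 (SE 0.13), and MT-TF and MT-TP were lower, at -0.27 (SE 0.08) and -0.30 (SE 0.04). The larger values of MT-TQ, -0.42 (SE 0.20), and MT-TI, -0.36 (SE 0.19), did not pass the test.

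In HepG2, 11 of the 13 mRNAs rose at 24 h, and all 13 were below their starting level at 48 h. At 24 h against 0 h, 25 members rose and 5 fell, with 11.4% of all genes higher and 18.3% lower. MT-ND5 and MT-ND6 rose most among the mRNAs, by 0.53 (SE 0.02) and 0.53 (SE 0.03), followed by MT-CO1 and MT-ND1, each at 0.46. MT-CO2 fell, at -0.20 (SE 0.02), and MT-ND3 had -0.18 (SE 0.07), which did not pass the test. The rRNAs went the other way, with MT-RNR1 at -0.54 (SE 0.03) and MT-RNR2 at -0.39 (SE 0.02). From 24 h to 48 h, 31 members fell and 2 rose (background 11.9% lower and 18.7% higher). The 2 that rose were the rRNAs, MT-RNR1 at 0.28 and MT-RNR2 at only 0.06. The number that rose was 1 with DESeq2 and 3 with scaling to library totals alone. Against 0 h, all 13 mRNAs and both rRNAs were lower at 48 h, and in all 20 members fell, where 14.6% of genes fell and 13.1% rose. The remaining 17 members, all tRNAs, did not pass the test. The falls at 48 h ranged over the mRNAs from -0.18 (SE 0.03) for MT-ND6 to -0.68 (SE 0.02) for MT-CYB, with a median of -0.51 against -0.0268 over all genes tested.

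In APOA4-KO the mRNAs did not rise at 24 h. All 13 mRNAs and both rRNAs fell, and over the 37 members 30 fell and 2 rose, against 22.8% and 21.5% of all genes. At 48 h against 0 h, 34 members fell and 1 rose (25.9% and 23.9% of all genes). Falls with a log2 fold change of -1 or below were called for 14 members at 24 h and 24 members at 48 h, where 2.19% and 6.85% of all genes met that rule. The size of the fall was far from uniform. At 48 h, MT-CO3 fell by 4.61-fold, from 8741, 9329.9 and 9236 CPM in the 3 libraries at 0 h to 2056, 1997 and 1873 CPM. MT-CYB fell by 4.48-fold, from 3359.5, 3389 and 3413 to 743, 751 and 775 CPM. MT-CO1 had 20903, 21788 and 21743 CPM at 0 h and 18659, 19492 and 19005 CPM at 48 h, a log2 fold change of -0.17 (SE 0.02). For all 3 mRNAs the libraries of the groups did not overlap, yet MT-CO3 and MT-CYB fell more than 4-fold while MT-CO1 lost little.

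By library, the mRNAs of complex IV showed these courses directly. MT-CO1, the catalytic subunit of the oxidase, had 19833, 20283 and 20077 CPM in HepG2 before hypoxia, 27543, 27785 and 27381 after 24 h and 17705, 16454 and 17114 after 48 h, and 17548, 17263 and 17718 CPM in APOA4-KO after 24 h. MT-CO2, which takes electrons from cytochrome c, had 6112, 6112 and 5923 CPM before hypoxia, 5290.4, 5293 and 5251 after 24 h and 4274, 4234 and 4191 after 48 h in HepG2, and 5655, 5665 and 5545 before hypoxia, 2648, 2585 and 2797 after 24 h and 2775, 2694 and 2782 after 48 h in APOA4-KO. MT-CO3, a further core subunit, had 7735, 7949.5 and 7939 CPM in HepG2 before hypoxia and 5102, 4770.1 and 5109 after 48 h. For MT-CO1 the 24 h libraries of HepG2 stood above all others, whereas for MT-CO2 the libraries before hypoxia were the highest in both lines.

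Of complex I, MT-ND1 had 2391, 2440 and 2467 CPM before hypoxia, 3336, 3394 and 3316 after 24 h and 1879, 1829 and 1805 after 48 h in HepG2, and 2633, 2613 and 2639.9 before hypoxia, 1169, 1120.4 and 1202 after 24 h and 756, 766 and 775 after 48 h in APOA4-KO. MT-ND2 had 2562, 2665 and 2626 CPM before hypoxia, 3467, 3527 and 3469 after 24 h and 1859.7, 1818 and 1829 after 48 h in HepG2, and 2636, 2691 and 2682 before hypoxia, 1238, 1202 and 1240.1 after 24 h and 882, 895 and 894 after 48 h in APOA4-KO. Both encode membrane subunits of the proton-pumping arm, and both were highest in HepG2 at 24 h and lowest in APOA4-KO at 48 h. MT-ND4 had 7299.6, 7658 and 7339 CPM before hypoxia, 9178, 9365 and 9252 after 24 h and 6619.8, 6413 and 6352 after 48 h in HepG2, and 7911, 7957 and 8070 before hypoxia, 6480.3, 6416 and 6786 after 24 h and 6685, 6756 and 6961 after 48 h in APOA4-KO. MT-ND5 had 3303, 3403 and 3332 CPM before hypoxia, 4757, 4845 and 4919 after 24 h and 2891, 2876 and 2824 after 48 h in HepG2, and 3566, 3579.5 and 3648 before hypoxia, 3164, 3074 and 3215 after 24 h and 2254, 2268 and 2425 after 48 h in APOA4-KO. These 2, further subunits of that arm, shared the peak in HepG2, and in APOA4-KO at 48 h MT-ND5 lay below its HepG2 libraries and MT-ND4 above them, though not with scaling to library totals alone. MT-ND4L had 1474, 1541 and 1489 CPM before hypoxia, 1929, 1934 and 1886 after 24 h and 1233, 1232 and 1229 after 48 h in HepG2, and 1581, 1561 and 1597 before hypoxia, 1284, 1278 and 1321 after 24 h and 1233, 1229.9 and 1274 after 48 h in APOA4-KO. MT-ND3, the least abundant mRNA, had 194, 198 and 175 CPM before hypoxia, 161, 170.0 and 171 after 24 h and 124, 116 and 121 after 48 h in HepG2, and 211, 192 and 194 before hypoxia, 85.7, 83.7 and 98.4 after 24 h and 62.0, 52.0 and 58.9 after 48 h in APOA4-KO, so it had no peak at 24 h. For complexes III and V in HepG2, MT-CYB had 2779.7, 2833 and 2804 CPM before hypoxia, 3063, 3100 and 3133 after 24 h and 1737, 1752 and 1758 after 48 h, and MT-ATP6 had 4085, 4276 and 4105 CPM before hypoxia, 4815, 4926 and 4820 after 24 h and 2929, 2859.5 and 2824 after 48 h.

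The 13 mRNAs are split here at -1 by their fall in APOA4-KO at 48 h, in a gap between -0.64 and -1.03. A wider gap lay between MT-CO2 at -1.03 and MT-ND2 at -1.58. On the far side of -1 lay MT-ND2 at -1.58 (SE 0.02), MT-ATP6 at -1.65, MT-ATP8 at -1.78, MT-ND1 at -1.78, MT-ND3 at -1.79, MT-CYB at -2.16 and MT-CO3 at -2.20. MT-CO2, at -1.03 (SE 0.02), lay on that side as well, nearest the limit. On the near side lay MT-ND5 at -0.64 (SE 0.02), MT-ND6 at -0.45, MT-ND4L at -0.34, MT-ND4 at -0.23 and MT-CO1 at -0.17. The same 8 mRNAs had a log2 fold change of -1 or below at 24 h, from -1.07 for MT-CO2 to -1.91 for MT-CO3, and the same 5 lay between -0.12 for MT-ND6 and -0.29 for MT-CO1. This grouping was made after the values were seen. In HepG2 at 48 h all falls but that of MT-CO1, -0.23 against -0.17 in APOA4-KO, were smaller. There those 5 also had the 5 smallest falls of the 13, from -0.18 to -0.29. The 8 lay between -0.40 for MT-ND1 and -0.68 for MT-CYB in HepG2.

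**Figure D2:**
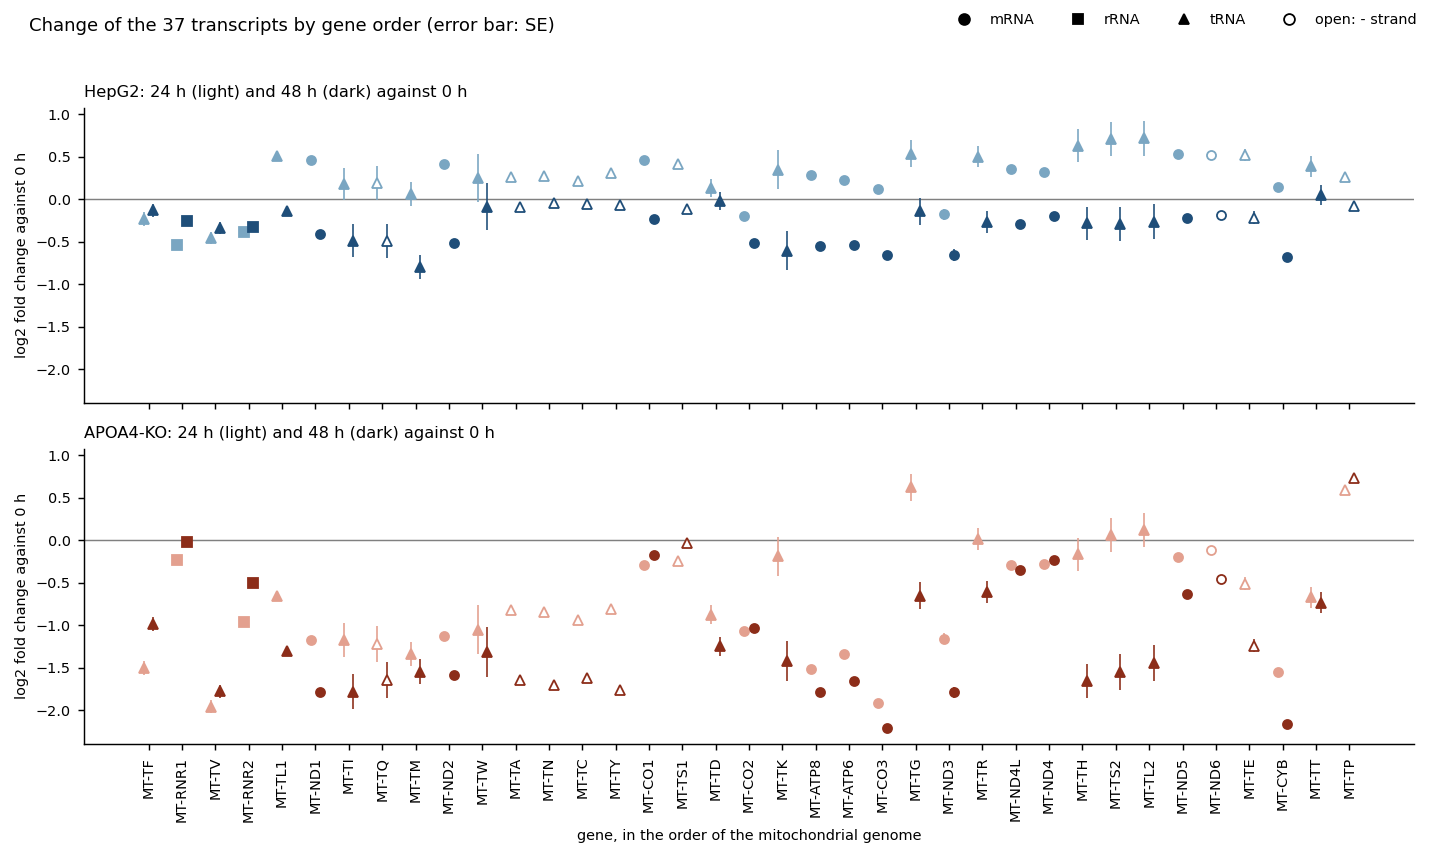
Log2 fold change against 0 h (error bars: SE of the edgeR model) of the 37 transcripts in the order of the mitochondrial genome, for HepG2 above and APOA4-KO below, with 24 h in the light and 48 h in the dark shade. Circles are mRNAs, squares rRNAs and triangles tRNAs, and open symbols mark the 9 genes on the - strand. In APOA4-KO at 48 h the values ran from -2.20 for MT-CO3 to 0.74 for MT-TP.

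Set against HepG2 at the same time, APOA4-KO was lower for 30 members and higher for 1 at 24 h (24.6% and 23.6% of all genes) and lower for 29 and higher for 5 at 48 h (27.3% and 23.5%). With a limit of -1 on the log2 scale, 18 members were lower at 24 h and 17 at 48 h, where 3.28% and 7.18% of all genes were. At 24 h every mRNA was lower, from -0.50 (SE 0.02) for MT-ND4 to -1.82 (SE 0.03) for MT-CO3, and MT-CO3 had 8669, 8656 and 8347 CPM in HepG2 and 2386, 2476 and 2415 CPM in APOA4-KO. MT-RNR1 was the member that was higher, at 0.39 (SE 0.03). At 48 h the differences ran from -1.34 (SE 0.03) for MT-CO3 and -1.26 for MT-ND1 to values near 0 for the mRNAs that had fallen least. MT-CO1 was higher by 0.16 (SE 0.02), which kept its sign but did not pass the test with libraries scaled to their totals alone, at 0.0068, and MT-ND4 was higher by 0.07 (SE 0.02) but at -0.08 with that scaling. MT-ND4L, at 0.02 (SE 0.02), and MT-RNR2, at -0.03 (SE 0.02), did not pass the test. That scaling moved the median of all genes by -0.15 in this comparison, so differences of about that size depend on it. The remaining 3 members that were higher at 48 h were MT-RNR1 at 0.31 (SE 0.03), MT-TS1 at 0.15 (SE 0.03), whose call was also lost with that scaling, and MT-TP at 0.53 (SE 0.04).

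The change over time itself differed between the lines. For 0 h to 24 h, the interaction term passed the test for 33 members, 31 with a lower and 2 with a higher value in APOA4-KO, where 15.4% and 16.8% of all genes did. For 0 h to 48 h it passed for 30 members, 28 lower and 2 higher, against 17.8% and 18.6%. MT-CO3 had the most negative term among the mRNAs at both times, -2.03 (SE 0.05) and -1.55 (SE 0.05). For MT-CO1 the term was -0.75 (SE 0.03) at 24 h and 0.06 (SE 0.03) at 48 h, where it did not pass the test, as for MT-ND4L and MT-ND4. From 24 h to 48 h within APOA4-KO, 24 members fell and 6 rose (19.4% and 21.9% of all genes). The 6 were both rRNAs, MT-CO1, MT-TF, MT-TS1 and MT-TP, and the rise of MT-CO1, 0.12 (SE 0.02), turned to -0.008 with scaling to library totals. With limma on the FPKM values the split was 28 lower and 3 higher.

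With these unequal falls the makeup of the mRNA pool shifted, a measure that needs no scaling between libraries. MT-CO1 made up 33.0% ± 0.104 (SD, n = 3) of the counts of the 13 mRNAs in HepG2 at 0 h and 32.7% ± 0.286 in APOA4-KO at 0 h. After 48 h it made up 36.3% ± 0.561 in HepG2 and 48.6% ± 0.671 in APOA4-KO. MT-ND4 went from 12.2% ± 0.117 to 17.3% ± 0.282 in APOA4-KO and from 12.2% ± 0.172 to 13.7% ± 0.181 in HepG2. MT-CO3 went the other way, from 13.9% ± 0.287 to 5.04% ± 0.280 in APOA4-KO and from 12.9% ± 0.120 to 10.6% ± 0.277 in HepG2. MT-CYB likewise lost share in APOA4-KO, from 5.16% to 1.93%, whereas MT-ND5, MT-ND6 and MT-ND4L, whose levels fell less, gained share, MT-ND4L from 2.41% to 3.18%. In HepG2 MT-CYB also lost share, from 4.61% to 3.72%, and MT-ND5, MT-ND6 and MT-ND4L gained it. MT-ND5 went from 5.50% to 6.09% in HepG2 and from 5.48% to 5.91% in APOA4-KO.

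Per kilobase of gene, MT-CO1 was the most abundant of the mRNAs in each of the 6 groups, at 13012 CPM per kilobase in HepG2 at 0 h and 12355 in APOA4-KO at 48 h. MT-ND3, a short complex I mRNA, was the least abundant, at 546 and 167 CPM per kilobase. In HepG2 at 0 h MT-CO3 came second among the mRNAs on this scale, at 10044, followed by MT-CO2 at 8843 and MT-ATP8 at 8625. In APOA4-KO at 48 h MT-ND4 and MT-ND4L came after MT-CO1, at 4935 and 4195, and MT-CO3 stood at 2519. For genes shorter than a sequenced fragment, such as MT-ATP8 and the tRNAs, a value per kilobase is less certain.

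The complexes did not move as blocks. Among the 3 mRNAs of complex IV in APOA4-KO at 48 h against 0 h, MT-CO1 had the smallest fall of the 13 mRNAs, -0.17, MT-CO3 the largest, -2.20, and MT-CO2 lay between them, at -1.03. MT-CO2 also fell at 24 h in HepG2, when MT-CO1 and MT-CO3 rose. The 7 mRNAs of complex I ran from -0.23 for MT-ND4 to -1.79 for MT-ND3, with a median of -0.64. Both mRNAs of complex V fell to a like extent, with MT-ATP6 at 4612, 4677 and 4678 CPM at 0 h and 1504, 1473 and 1479 CPM at 48 h and MT-ATP8 at 2079, 2049 and 2143 and 612, 602 and 613 CPM. MT-CYB, the mRNA of complex III, came next to MT-CO3 in the size of its fall.

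Genes that share a transcript moved alike. MT-ATP8 and MT-ATP6 overlap and are carried by 1 mRNA, as are MT-ND4L and MT-ND4, so reads in the overlap can be counted for either gene. Across the 9 comparisons between groups, the log2 fold changes of MT-ATP8 and MT-ATP6 differed by at most 0.17 and those of MT-ND4L and MT-ND4 by at most 0.12. In raw counts, MT-ATP8 had 44.9 ± 1.01 (SD, n = 3) per 100 of MT-ATP6 in APOA4-KO at 0 h and 41.0 ± 0.385 at 48 h, and MT-ND4L had 19.8 ± 0.184 per 100 of MT-ND4 and 18.3 ± 0.124. MT-CO2 and MT-ATP8, which are separated by MT-TK alone, differed by up to 0.75. MT-ATP6 and MT-CO3, which adjoin with no tRNA between them, differed by up to 0.57.

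MT-TS1 and MT-ND6, on the - strand, followed the + strand mRNA whose end they meet. MT-TS1, the tRNA gene for serine that lies opposite to the strand of MT-CO1 directly after its end, had 72.0, 71.5 and 71.7 CPM in APOA4-KO before hypoxia, 58.9, 62.2 and 61.0 after 24 h and 71.2, 71.3 and 67.9 after 48 h. In HepG2 it had 68.0, 68.1 and 69.1 CPM before hypoxia, 89.9, 92.2 and 91.7 after 24 h and 63.8, 63.6 and 61.8 after 48 h. As for MT-CO1, the libraries of HepG2 at 24 h were the highest and those of APOA4-KO differed less between the times. The log2 fold changes of MT-CO1 and MT-TS1 differed by at most 0.16 over the 9 comparisons, and MT-TS1 kept to 3.26 to 3.86 counts per 1000 of MT-CO1 in all 18 libraries. MT-ND6, the only mRNA of the - strand, had 607, 629 and 632 CPM in HepG2 before hypoxia, 883, 917 and 889 after 24 h and 584, 536 and 526 after 48 h, and 676, 692 and 690.2 CPM before hypoxia, 622, 636 and 643 after 24 h and 493, 509 and 504 after 48 h in APOA4-KO. The log2 fold changes of MT-ND5 and MT-ND6 differed by at most 0.18, and MT-ND6 had 18.6 ± 0.311 counts (SD, n = 3) per 100 of MT-ND5 in HepG2 at 0 h and 21.7 ± 0.846 in APOA4-KO at 48 h. The labels describe strand-marked libraries, but whether the counting used the strand is not given in the sources used here, so reads of MT-CO1 or MT-ND5 that run past the annotated ends cannot be told apart from those of MT-TS1 and MT-ND6.

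**Figure D3:**
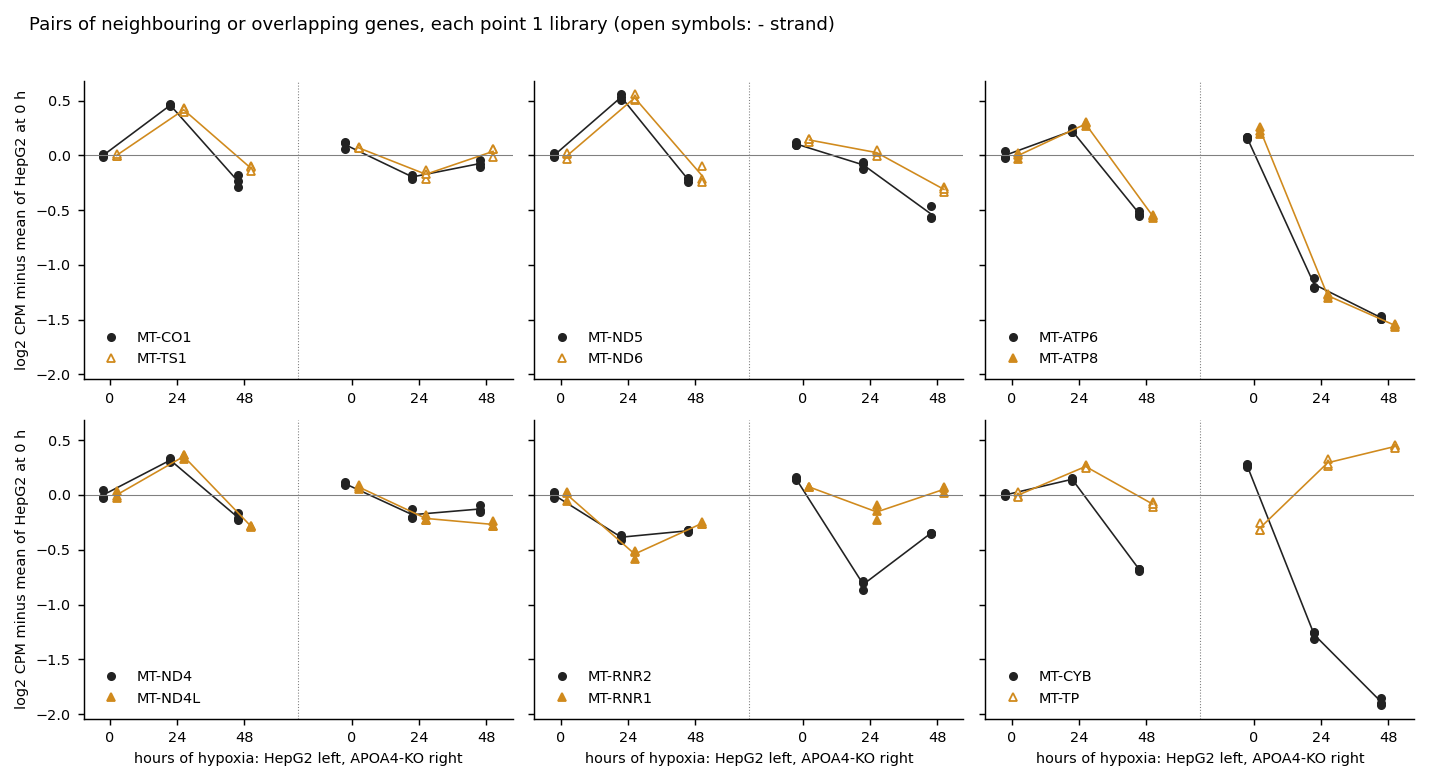
Log2 CPM of each library minus the mean log2 CPM of the gene in HepG2 at 0 h, against hours of hypoxia (HepG2 left and APOA4-KO right of the dotted line), for 6 pairs of neighbouring or overlapping genes. Each point is 1 library, lines join group means, and open symbols are - strand genes. MT-TS1 and MT-ND6 lie on the courses of MT-CO1 and MT-ND5, whereas MT-RNR1 parts from MT-RNR2 and MT-TP from MT-CYB in APOA4-KO.

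Both rRNAs, the RNA core of the small and large subunits of the mitochondrial ribosome, are read ahead of the mRNAs of the + strand, and in these poly(A)-selected libraries their level need not be that of the whole rRNA. MT-RNR2, the larger, had 18106, 18814 and 18575 CPM in HepG2 before hypoxia, 13896, 14217 and 14374 after 24 h and 14836, 14836 and 14594 after 48 h. In APOA4-KO it had 20326, 20456 and 20667 CPM before hypoxia, 10161, 10739 and 10625 after 24 h and 14543, 14502 and 14449 after 48 h. It was thus lowest at 24 h in both lines. MT-RNR1 had 1673, 1768 and 1760.4 CPM before hypoxia, 1207, 1216 and 1157 after 24 h and 1441, 1464 and 1439 after 48 h in HepG2 and 1824, 1822 and 1821 CPM before hypoxia, 1477, 1568 and 1629 after 24 h and 1825, 1814 and 1754 after 48 h in APOA4-KO, where 48 h against 0 h gave -0.02 (SE 0.03), which did not pass the test and was slightly above 0 with DESeq2. The balance of the pair differed between the lines under hypoxia. Per 100 counts of MT-RNR2, HepG2 had 9.37 ± 0.120 counts (SD, n = 3) of MT-RNR1 before hypoxia, 8.43 ± 0.334 after 24 h and 9.82 ± 0.0869 after 48 h. APOA4-KO had 8.90 ± 0.0828, 14.8 ± 0.442 and 12.4 ± 0.227 at these times. The libraries of APOA4-KO under hypoxia lay above all others in this ratio.

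The tRNAs are short, carry no poly(A) tail of the mRNA kind and were counted at far lower levels than the mRNAs, so that what their counts hold, mature tRNA or uncut precursor, was not tested. The highest was MT-TN, with 122 to 129.5 CPM in HepG2 at 0 h, and the lowest MT-TW, with 0.641 to 0.783 CPM. In all 18 libraries a gene count of 8 was 2.06 to 2.55 times as frequent as the mean of 7 and 9. A count of 4 was likewise 2.662 to 3.115 times as frequent as the mean of its neighbours. A low count thus need not stand for single read pairs. The tRNA genes are shorter than a sequenced fragment, so a fragment can span adjoining ones. How such fragments were counted is not given in the sources used here. Like values of adjoining tRNAs therefore need not be independent. In HepG2 at 24 h, 14 of the 22 tRNAs rose and 2, MT-TF and MT-TV, fell (all genes 11.4% and 18.3%). In APOA4-KO, 15 fell and 2 rose at 24 h (all genes 22.8% and 21.5%), and 20 fell and 1 rose at 48 h (all genes 25.9% and 23.9%), with a median of -1.43 at 48 h against -0.0676 over all genes tested.

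The tRNAs of 1 cluster had like changes, which need not be independent because a fragment can span adjoining tRNA genes. The - strand cluster of MT-TA, MT-TN, MT-TC and MT-TY, for alanine, asparagine, cysteine and tyrosine, lies between MT-ND2 and MT-CO1. In APOA4-KO its members had -0.82, -0.85, -0.94 and -0.81 at 24 h against 0 h, in that order, and at 48 h -1.65, -1.70, -1.62 and -1.76. MT-TN had 139, 134 and 132 CPM before hypoxia, 72.2, 75.6 and 77.4 after 24 h and 43.8, 39.3 and 41.2 after 48 h. In HepG2 it had 125, 129.5 and 122 CPM before hypoxia, 147, 155 and 153 after 24 h and 123, 121 and 121 after 48 h, and 48 h against 0 h did not pass the test. Unlike MT-TS1, this cluster did not keep pace with MT-CO1, and MT-TN went from 6.05 to 6.66 counts per 1000 of MT-CO1 at 0 h to 2.02 to 2.35 at 48 h in APOA4-KO.

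MT-TF and MT-TV, which flank MT-RNR1, fell early. MT-TV, for valine, had 11.8, 12.6 and 12.1 CPM in APOA4-KO before hypoxia, 3.18, 3.27 and 2.96 after 24 h and 3.47, 3.70 and 3.49 after 48 h, a fall of 3.88-fold at 24 h, while MT-RNR1 between them changed by -0.23 (SE 0.03). MT-TV thereby went from 6.49 to 6.91 to 1.82 to 2.15 counts per 1000 of MT-RNR1. In HepG2 the same ratio was 7.29 to 7.98 at 0 h and 7.92 to 8.12 at 24 h.

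MT-TH, MT-TS2 and MT-TL2, which lie in a row between MT-ND4 and MT-ND5, fell late. Fragments can span these adjoining genes too, so their like values need not be independent. In APOA4-KO they had -0.16 (SE 0.19), 0.07 (SE 0.20) and 0.12 (SE 0.20) at 24 h, none of which passed the test, and -1.65 (SE 0.20), -1.55 (SE 0.21) and -1.44 (SE 0.21) at 48 h. MT-TG, for glycine, had 2.94, 3.32 and 2.98 CPM in APOA4-KO before hypoxia, 4.33, 4.97 and 4.97 after 24 h and 1.87, 1.71 and 2.31 after 48 h, so it rose before it fell. MT-CO3 and MT-ND3, the mRNAs on either side of MT-TG, had fallen by 24 h, with -1.91 and -1.16.

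Of MT-TL1, MT-TE, MT-TD, MT-TI, MT-TQ, MT-TM, MT-TR, MT-TK and MT-TW, all but MT-TR had their lowest group mean in APOA4-KO at 48 h. MT-TL1, for leucine, which follows MT-RNR2, had 37.2 to 37.9 CPM before hypoxia and 14.9 to 15.7 after 48 h in APOA4-KO, against 35.3 to 37.5 and 31.9 to 34.3 in HepG2. MT-TE, for glutamate, had 13.9 to 15.4 and 5.91 to 6.35 CPM in APOA4-KO and 13.6 to 14.7 and 11.7 to 12.6 in HepG2. MT-TD, for aspartate, had 4.86 to 4.97 and 1.97 to 2.21 CPM in APOA4-KO and 4.65 to 5.10 and 4.58 to 4.97 in HepG2. In APOA4-KO these 3 were lower after 48 h without overlap. MT-TI, MT-TQ and MT-TM, for isoleucine, glutamine and methionine, lie together before MT-ND2 and had -1.78 (SE 0.20), -1.64 (SE 0.21) and -1.55 (SE 0.15) in APOA4-KO at 48 h. MT-TR, for arginine, and MT-TK, for lysine, had 0.02 (SE 0.13) and -0.19 (SE 0.23) at 24 h in that line, which did not pass the test, and -0.61 (SE 0.13) and -1.42 (SE 0.24) at 48 h. MT-TW, for tryptophan, the least abundant, had -1.31 (SE 0.30).

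MT-TP, for proline, was the 1 member that was higher at 48 h than at 0 h in APOA4-KO. It had 21.9, 21.9 and 22.8 CPM in APOA4-KO before hypoxia, 32.8, 34.2 and 33.3 after 24 h and 37.1, 37.4 and 36.7 after 48 h, against 27.1, 27.8 and 26.9 CPM before hypoxia, 32.9, 32.7 and 32.4 after 24 h and 26.2, 25.3 and 25.7 after 48 h in HepG2. APOA4-KO was thus below HepG2 at 0 h and above it at 48 h, with no overlap of libraries at either time. MT-TP lies on the - strand at the far end of the gene order, beyond MT-CYB and MT-TT and next to the control region, where transcription of the - strand starts. Its + strand neighbour MT-TT had -0.73 (SE 0.12) in APOA4-KO at 48 h.

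The strands overlapped in the range of their changes. In APOA4-KO at 48 h against 0 h, the 28 members on the + strand ran from -2.20 to -0.02, with a median of -1.37. The 9 on the - strand ran from -1.76 to 0.74, with a median of -1.62. Both held a member near 0, MT-RNR1 and MT-TS1. Whether the counting used the strand is not given, so the counts of MT-TS1 may hold reads of MT-CO1. In HepG2 at 24 h the medians were 0.30 and 0.27. The way in which the stop codon is encoded left exceptions on both sides. Of the 6 mRNAs whose DNA encodes only the start of the stop codon, which the poly(A) tail completes, 5 had fallen to -1 or below at 48 h in APOA4-KO, and MT-ND4, which also ends in a lone T, had -0.23. Of the 7 with a whole stop codon, 3 had fallen that far, MT-CO2, MT-ATP8 and MT-ATP6. Among all genes tested, 6.85% had a called fall of that size in this comparison. The median was -1.78 over the 6 and -0.64 over the 7. This split was made after the values were seen.

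Sequences copied from the mitochondrial genome into nuclear chromosomes are listed as genes too. Of 404 such rows, with symbols beginning MTND, MTCO, MTCYB, MTATP or MTRNR2L, 11 had enough counts to be tested. The highest followed the member they resemble. MTATP6P1 had a mean of 713 CPM in APOA4-KO at 0 h and 218 at 48 h, MTND2P28 had 127 and 41.6, and MTCO1P12 had 249.5 and 223, and thus the copy of MT-CO1, like MT-CO1, had the smallest difference of the 3. Summed over the 404 rows, their level was 1055 to 1122 CPM in APOA4-KO at 0 h and 467 to 500.3 CPM at 48 h. How reads that align to both a member and its copy were counted is not given in the sources used here, so the values of members with close copies are uncertain by that part.

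The nuclear genes whose products make and handle these RNAs did not share 1 direction. Of 16 genes for transcription and maintenance of the mitochondrial genome, 6 were higher and 7 lower in APOA4-KO than in HepG2 at 48 h, where 23.5% of all genes were higher and 27.3% lower, with a median of -0.0179 beside -0.0379 over all genes tested. MTERF1 and MTERF2, both of the mitochondrial transcription termination factor family, had -1.02 (SE 0.19) and -0.96 (SE 0.16) (edgeR adjusted p = 0.00011 and 5.9e-05). TEFM, an elongation factor of the mitochondrial RNA polymerase, had -0.75 (SE 0.17) (edgeR adjusted p = 0.00089). MGME1, an exonuclease of mitochondrial DNA, had -0.86 (SE 0.05). TOP1MT, the mitochondrial topoisomerase, was higher, at 0.58 (SE 0.05). The summed level of the list was 394 to 407 CPM in HepG2 and 423 to 429.7 CPM in APOA4-KO at 48 h.

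Of 32 genes for processing, modification, stability and decay of mitochondrial RNA, 3 were higher and 13 lower in APOA4-KO at 48 h (all genes 23.5% and 27.3%), with a median of -0.14, and at 0 h 4 were higher and 6 lower (all genes 12.9% and 17.6%). HSD17B10, a subunit of mitochondrial RNase P, which cuts the 5′ ends of tRNAs, had the largest difference at 48 h, -1.09 (SE 0.04) (edgeR adjusted p = 7.3e-14), and had -0.38 (SE 0.04) at 0 h. ELAC2, the RNase Z that cuts their 3′ ends, had -0.68 (SE 0.05) at 48 h and -0.34 (SE 0.05) at 0 h. TRMU and MRM1, which modify mitochondrial tRNA and rRNA, had -0.74 (SE 0.08) and -0.71 (SE 0.07). ANGEL2 and FASTKD3, both linked to processing of mitochondrial mRNA, had -0.64 (SE 0.09) and -0.54 (SE 0.13). Whether these differences bear on the members was not tested.

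The 11 RNAs looked up that carry no poly(A) tail, which poly(A) selection should remove, were near absent. Of these 11, among them RN7SK and RN7SL2, 5 had enough counts to be tested. The sum over the 11 was 0.913 to 1.97 CPM in HepG2 at 0 h. At 48 h it was 0.616 to 1.32 CPM in HepG2 and 1.29 to 7.37 CPM in APOA4-KO, so the libraries of the lines overlapped in this sum. RN7SK, RN7SL2 and RPPH1, with means of at most 1.06 CPM, were higher in APOA4-KO at 48 h, by 2.30 (SE 0.75), 2.41 (SE 0.80) and 3.55 (SE 1.30). Of 49 genes with histone symbols that could be tested, 8 were higher and 9 lower in that comparison (all genes 23.5% and 27.3%). Summed over all 92 rows with such symbols, the level in HepG2 was 668 to 683 CPM at 0 h and 586 to 604 CPM at 48 h. In APOA4-KO that sum was 721 to 735 CPM at 0 h and 1428 to 1495 CPM at 48 h. Most members were lowest in the same group, APOA4-KO at 48 h, and the part of poly(A) selection in the results was not tested.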

How the data were processed

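Poly(A)-selected RNA of 18 samples was sequenced. The authors used fastp for trimming, HISAT2 for alignment to GRCh38.p13 and featureCounts for counting per gene, while the labels name StringTie. How strand and reads with several alignments were treated is not given in the sources used here. The deposited counts are whole numbers per gene without normalization, and the deposited FPKM values were scaled by the authors to gene length and library total.

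The members and all gene lists were chosen with earlier results of these data known. Genes were named if they were members, or if they were among the 6 genes of a list with the largest difference between the lines at 48 h and an adjusted p under 0.05. Counts were filtered with filterByExpr (19743 genes kept), scaled with TMM and tested with the quasi-likelihood test of edgeR 4.0.16 in R 4.3.3, with 6 group coefficients, over 11 comparisons and with Benjamini-Hochberg adjustment over all genes tested. The script was tested on simulated data. Positions and sequences came from GENCODE release 29. Counts of 76481820 to 91604947 per library limit the precision most for the tRNAs, with 15 counts at the lowest. Alternatives were DESeq2 1.42.0, limma 3.58.1 on log2(FPKM + 1) and log2(FPKM + 0.1), other scalings, no filter, fits of the compared groups alone, a replicate block and the removal of each library.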

Additional observations from a re-analysis of the deposited data

Results flagged for a closer look

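The change from 0 h differed between APOA4-KO and HepG2, by the interaction term of the edgeR model (change in APOA4-KO minus change in HepG2, log2 scale), for 33 members at 24 h and 30 members at 48 h. Of all genes tested, 15.4% had a lower and 16.8% a higher term at 24 h, and 17.8% and 18.6% at 48 h. At 24 h the term was -2.03 for MT-CO3, -1.79 for MT-ATP8, -1.69 for MT-CYB, -1.64 for MT-ND1, -1.57 for MT-ATP6 and -1.54 for MT-ND2. It was -0.98 for MT-ND3, -0.87 for MT-CO2, -0.75 for MT-CO1, -0.72 for MT-ND5, -0.64 for MT-ND6, -0.64 for MT-ND4L and -0.60 for MT-ND4. MT-RNR2 and MT-TS1 had -0.58 and -0.66, and MT-RNR1 and MT-TP had the opposite sign, at 0.31 and 0.33.

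At 48 h the term was -1.55 for MT-CO3, -1.48 for MT-CYB, -1.37 for MT-ND1, -1.22 for MT-ATP8, -1.13 for MT-ND3, -1.11 for MT-ATP6 and -1.07 for MT-ND2. It was -0.52 for MT-CO2, -0.41 for MT-ND5, -0.27 for MT-ND6 and -0.17 for MT-RNR2, and 0.24 for MT-RNR1 and 0.82 for MT-TP. The members were chosen after such differences had been seen in these libraries, and these terms are values only.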

How the results depend on the processing

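For all 11 comparisons, the number of members called stayed within 1.5 times its value under every alternative run, leave-one-out included. Single values were recomputed for 17 members, the mRNAs, the rRNAs, MT-TS1 and MT-TP, in 9 comparisons between groups, not for the other tRNAs or the interaction terms. Their sign turned in 20 of these recomputed values. In APOA4-KO against HepG2 at 48 h, scaling to library totals alone and limma on the FPKM values gave -0.1331 and -0.1327 for MT-ND4L and -0.0761 and -0.0755 for MT-ND4. Without 1 library, MT-ND4L ran from -0.0006 to 0.0254. From 24 h to 48 h in APOA4-KO, the same settings gave -0.008 for MT-CO1 with each, -0.0899 and -0.0895 for MT-CO2 and -0.0777 and -0.0775 for MT-ND4. With the compared groups alone and with DESeq2, MT-RNR1 in APOA4-KO at 48 h against 0 h went to 0.0109 and 0.0021, and MT-RNR2 in APOA4-KO against HepG2 at 48 h to 0.0009 and 0.0258. Scaling to library totals alone moved the median of all genes by -0.16 in APOA4-KO at 48 h against 0 h, by -0.13 at 48 h against 24 h and by -0.17 in the difference between the lines at 48 h. The median of the 13 mRNAs in APOA4-KO against HepG2 at 48 h, -0.95, ranged from -1.1002 to -0.8993 over the alternatives that kept all libraries.

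The labels give the groups the same replicate numbers, and no shared effect of same-numbered libraries was seen. Over 45 pairs of same-numbered libraries from different groups, the correlation of their deviations ran from -0.14 to 0.05, and none exceeded 0.1. Over 90 pairs with different numbers it ran from -0.08 to 0.145, and 2 exceeded 0.1. Whether same-numbered samples were grown or processed together cannot be read from these values. With a replicate block, 32 members were called for the line difference at 24 h against 33 without it, and 34 against 34 in APOA4-KO against HepG2 at 48 h, 31 against 31 at 24 h and 15 against 15 at 0 h.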
